A study of Mus musculus with 9 samples.

Results

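Smc1b, Stag3 and Sycp1 are genes of meiosis that were read here in mouse fibroblasts on their way to induced pluripotent cells. They were chosen by name, as 3 of the 12550 genes of the deposited table. Cohesin is a ring of proteins that holds sister chromatids together, and germ cells build it partly from their own subunits. SMC1beta, the product of Smc1b, takes the place of the product of Smc1a in that ring, and STAG3 takes the place of the products of Stag1 and Stag2. Sycp1 encodes the transverse filament of the synaptonemal complex, the protein ladder that joins homologous chromosomes in meiotic prophase. In somatic mouse cells such genes are usually kept low, by promoter methylation and by repressors that include E2F6 and the Polycomb complex PRC1.6.

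Mouse embryonic fibroblasts of strain C57Bl/6cJ were transfected with plasmids for Oct4, Sox2, Klf4 and c-Myc and kept in a medium for mouse embryonic stem cells that contains LIF, and every group shared both. They also received a pretroSuper construct for a short hairpin RNA against Hnrnpk, which encodes an RNA-binding protein, against lincRNA-p21, a p53-induced non-coding RNA whose gene is Trp53cor1, or against luciferase, the control. Total RNA was sequenced from 9 groups, 3 hairpin arms on each of days 6, 9 and 12, with 1 library per group that the labels call merged replicates. The labels give the cells as partially reprogrammed, and no sort or clone is described. Arms were compared over the 3 days and days over the 3 arms, so an SD below covers 3 days or 3 arms. A p-value sets a mean difference against the spread that the arm and day terms leave over all 9 libraries. That spread was drawn towards the spread of other genes with like signal. The deposited signal carries no depth, so the counting error behind each value is unknown. In RNA of a whole culture, fewer cells of a type and less RNA per cell cannot be told apart.

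The hairpins were read first. Hnrnpk signal lay between 11349 and 17016 in the Hnrnpk arm, between 27873 and 31142 in the lincRNA-p21 arm and between 23376 and 31243 in the luciferase arm. Trp53cor1 lay between 119.5 and 137 in the Hnrnpk arm, between 90.5 and 122 in the lincRNA-p21 arm and between 237 and 286.5 in the luciferase arm. Both targets were lower than in the luciferase arm on all days in their own arm, and Trp53cor1 also under the Hnrnpk hairpin. In limma Hnrnpk fell in its own arm (adjusted p = 0.00824). Trp53cor1 was called lower under the Hnrnpk hairpin as well, at -0.94 (limma adjusted p = 0.00752). Both calls were lost in fits without day 9, without day 12 or without the day term. The difference of Trp53cor1 under the lincRNA-p21 hairpin, -1.25, did not pass (limma adjusted p = 0.0603). By p it ranked 2 of 12541 genes in that comparison, where 1 gene passed. All 17 fibroblast markers listed were above 0 in every library. Of 16 pluripotent cell markers 15 were measured, and of those Lin28a and Dppa4 were each at 0 in 1 library. A value above 0 can still be near nothing. On day 6 Dppa5a, Lin28a and Dppa4 were at 1.5 or less in every arm, while Nanog was at 121 to 179.5. Of 15 germ cell markers 3 were measured, Prdm1, Tfap2c and Kit, which other embryonic cells also express. The remaining germ cell markers were not found among the genes of the table, which holds no gene with a highest value under 32.5. Whether low signal left them out is not known, so the presence of germ cells could not be read from their defining genes.

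The promoters of the 3 genes are printed because such repression is known to act there. Each window runs from 250 bases before to 50 bases after the RefSeq start on GRCm38.p6, 5′ to 3′ on the gene's own strand. Capitals mark matches to TCCCGC, the core of an E2F site, to CACGTG, the E-box that MAX and MGA bind, and to TCTCGCG or its reverse complement CGCGAGA. The last pair are the parts of the palindrome TCTCGCGAGA, which holds both of them and is bound by the factor BANP when unmethylated. The windows lie at chr15:85131908-85132207 on the minus strand (Smc1b), chr5:138280259-138280558 on the plus strand (Stag3) and chr3:102936051-102936350 on the minus strand (Sycp1).
Smc1b: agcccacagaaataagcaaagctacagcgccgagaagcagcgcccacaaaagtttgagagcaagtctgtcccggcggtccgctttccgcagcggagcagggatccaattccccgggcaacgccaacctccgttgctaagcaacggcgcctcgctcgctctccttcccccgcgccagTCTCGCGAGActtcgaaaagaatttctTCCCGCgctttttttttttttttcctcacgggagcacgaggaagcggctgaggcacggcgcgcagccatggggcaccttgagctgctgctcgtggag
Stag3: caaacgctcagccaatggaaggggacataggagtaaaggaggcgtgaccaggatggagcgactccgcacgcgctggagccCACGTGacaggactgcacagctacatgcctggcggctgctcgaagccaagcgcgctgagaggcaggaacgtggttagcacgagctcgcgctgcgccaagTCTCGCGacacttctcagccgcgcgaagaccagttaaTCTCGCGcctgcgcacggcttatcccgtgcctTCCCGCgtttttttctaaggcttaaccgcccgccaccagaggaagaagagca
Sycp1: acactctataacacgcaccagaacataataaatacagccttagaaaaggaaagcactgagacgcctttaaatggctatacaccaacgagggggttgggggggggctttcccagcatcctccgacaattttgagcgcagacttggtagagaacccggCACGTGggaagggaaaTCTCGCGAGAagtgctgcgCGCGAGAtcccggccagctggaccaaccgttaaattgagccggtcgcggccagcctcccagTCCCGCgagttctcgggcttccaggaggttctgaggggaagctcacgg

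All 3 windows held more CpG, the dinucleotide that is methylated, than most of all promoter windows. There were 29 CpG in Smc1b, 30 in Stag3 and 21 in Sycp1, against a median of 7 over 32817 windows of the same length. Fewer CpG than in Smc1b were found in 87.1% of all windows, fewer than in Stag3 in 88.3%, and fewer than in Sycp1 in 75.2%. These shares were not computed over the windows of genes in the table alone. The windows of the somatic genes Smc1a and Stag1 held 23 and 43 CpG, so a high count is not particular to meiotic genes. TCCCGC was found once in each window. It began 47 bases before the RefSeq start of Smc1b and just inside the transcript of Sycp1. In Stag3 it began 2 bases before the RefSeq start and ran across it. On either strand TCCCGC was present in 20% of all windows and in 35.5% of the 11942 windows of genes in the table. A match by itself is thus common. The GENCODE annotation begins Stag3 at 138280240, before the window taken here. By that annotation the Stag3 window lies inside the gene, and its distances hold for the RefSeq start alone.

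The palindrome TCTCGCGAGA was present in the windows of Smc1b and Sycp1, and in 0.466% of all windows and 0.938% of those of genes in the table. Stag3 had no full copy and had TCTCGCG at 2 places, a string found in 2.55% of all windows and 5.08% of those of genes in the table. CACGTG was present in the windows of Stag3 and Sycp1, in 7.15% of all windows and in 9.9% of those of genes in the table. The letters of the E-box and the palindrome were picked after these sequences had been read, and a match describes the letters alone. No methylation or binding was measured.

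**Figure D1:**
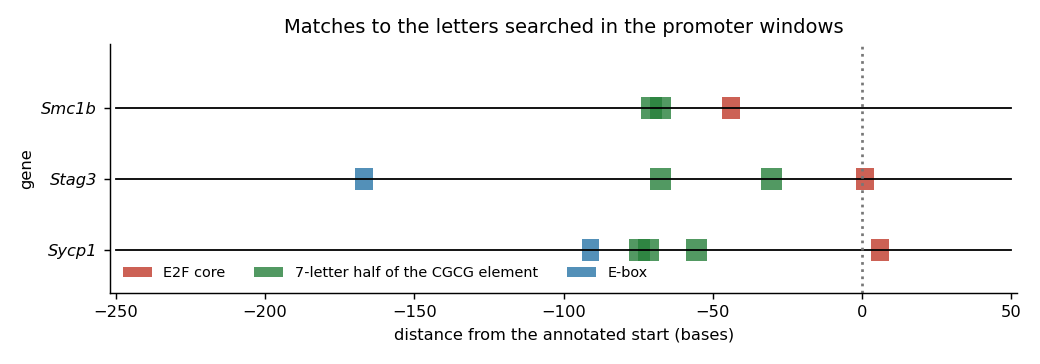
Positions of the matches in the 3 promoter windows, with distance from the annotated RefSeq start in bases on the horizontal axis and 1 line per gene. Colours mark the E2F core TCCCGC, the E-box CACGTG and TCTCGCG on either strand. Matches to TCTCGCG begin between 78 and 34 bases before the start in all 3 genes, and overlapping boxes in Smc1b and Sycp1 are the full palindrome.

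Under the Hnrnpk hairpin, Smc1b and Stag3 were lower than under the luciferase hairpin on all 3 days. Sycp1 was close to its control values on days 6 and 9 and lower on day 12, without a call. Smc1b signal on days 6, 9 and 12 was 26, 44 and 41 in the Hnrnpk libraries, against 65, 108 and 156 in the luciferase libraries. Every Hnrnpk library was below every luciferase library, and Smc1b climbed over the days in the luciferase arm while its Hnrnpk values stayed low. The means were 37.0 ± 9.64 in the Hnrnpk arm and 110 ± 45.5 in the luciferase arm (SD, n = 3 days each). Smc1b fell by 1.30 on the log2(signal + 10) scale (SE 0.21, 95% interval -1.77 to -0.83, limma with Benjamini-Hochberg adjustment over 12541 genes, adjusted p = 0.00743). Adding 10 to each value understates the change of genes with low signal. The daily differences in Smc1b were -1.06, -1.13 and -1.70 on days 6, 9 and 12.

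Stag3 signal was 36, 91 and 104 in the Hnrnpk libraries of days 6, 9 and 12, against 111, 132.5 and 176.5 in the luciferase libraries. The arms did not overlap in Stag3 either, but here both arms climbed, and the Hnrnpk library of day 6 stood far below the later ones. Stag3 fell by 0.87 on the log2 scale (SE 0.20, 95% interval -1.33 to -0.41, limma adjusted p = 0.0268). Its daily differences were -1.40, -0.50 and -0.71. The call in Stag3 ended when 1 of these libraries was left out, the luciferase library of day 6, 9 or 12 (adjusted p 0.0573, 0.0728 and 0.0724 in limma), the Hnrnpk library of day 12 (0.0622) or the lincRNA-p21 library of day 9 (0.0550). Over the 9 such fits its difference stayed between -1.04 and -0.61. Smc1b was called in all 9 of them, with differences between -1.44 and -1.07, though neither gene was called in fits without day 9 or without day 12.

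Sycp1 signal was 216, 270 and 212.5 in the Hnrnpk libraries of days 6, 9 and 12, against 204, 287 and 291 in the luciferase libraries. The libraries of both arms overlapped, with the Hnrnpk value slightly higher on day 6 and lower on day 12. The log2 difference in Sycp1 was -0.15 (SE 0.14, 95% interval -0.46 to 0.17, limma adjusted p = 0.521), and the daily differences were 0.08, -0.09 and -0.44. The interval for Sycp1 lies above that for Smc1b without overlap.

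So 2 of the 3 genes were called lower, where 6.94% of all tested genes were. The same 2 had arms that did not overlap in that direction, which held for 8.52% of tested genes. The 2 genes were also lower on every day, as were 23.4% of tested genes.

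**Figure D2:**
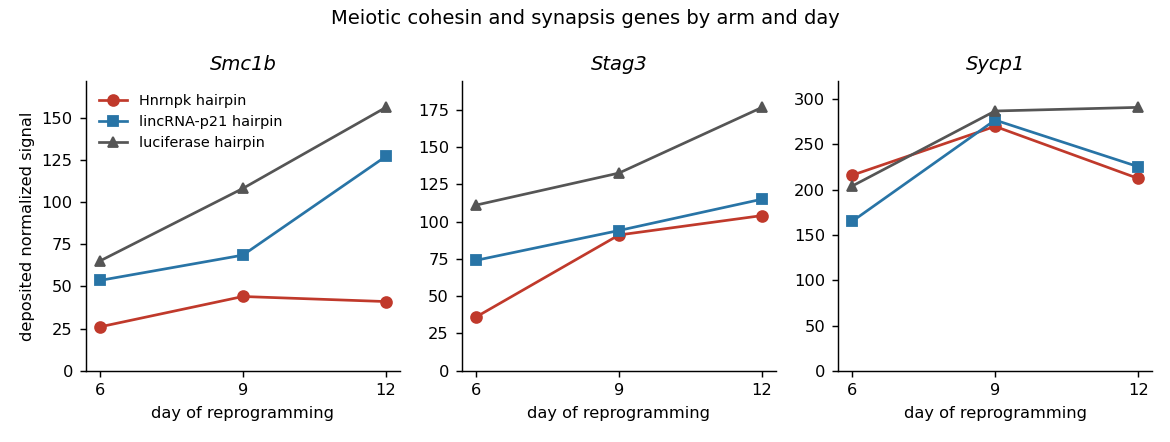
Deposited normalized signal (vertical axis, from 0, with its own range for each gene) on days 6, 9 and 12 for Smc1b, Stag3 and Sycp1, with 1 point per library and lines joining the libraries of a hairpin arm. Smc1b stays between 26 and 44 under the Hnrnpk hairpin while the luciferase arm reaches 156, and the Sycp1 lines meet on day 9, at 270 to 287.

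Under the lincRNA-p21 hairpin all 3 genes were lower than in the luciferase arm on every day, and no difference passed the test. Smc1b signal was 53.5, 68.5 and 127 in the lincRNA-p21 arm on days 6, 9 and 12, against 65, 108 and 156 in the luciferase arm. Smc1b climbed in both arms, and the lincRNA-p21 library of day 12 was above the luciferase libraries of days 6 and 9. Its log2 difference was -0.37 (SE 0.21, 95% interval -0.84 to 0.10, limma adjusted p = 0.474). Stag3 signal was 74, 94 and 115 in the lincRNA-p21 arm, against 111, 132.5 and 176.5 in the luciferase arm. The arms of Stag3 overlapped only where the day 12 library of the lincRNA-p21 arm passed the day 6 library of the luciferase arm. Its log2 difference was -0.52 (SE 0.20, 95% interval -0.98 to -0.06, limma adjusted p = 0.316), with daily differences of -0.53, -0.45 and -0.58. The interval is not adjusted for the number of genes, unlike the p-value.

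Sycp1 signal was 165, 277 and 225.5 in the lincRNA-p21 arm on days 6, 9 and 12, against 204, 287 and 291 in the luciferase arm. The lincRNA-p21 values were below those of the same day, by little on day 9, and the arms overlapped. Its log2 difference was -0.23 (SE 0.14, 95% interval -0.55 to 0.08, limma adjusted p = 0.499). All 3 genes were lower on every day, as were 19.2% of all tested genes. None was called, and 0% of tested genes were called lower in this comparison. Over both directions limma called 1 gene, 0.00797% of those tested, while 1730 had an unadjusted p under 0.05.

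The knockdown arms were then set against each other. At each day Smc1b was higher under the lincRNA-p21 hairpin than under the Hnrnpk hairpin, most of all on day 12, at 127 in the lincRNA-p21 arm and 41 in the Hnrnpk arm. The log2 difference, lincRNA-p21 minus Hnrnpk, was 0.93 in Smc1b (SE 0.21, 95% interval 0.46 to 1.40), and it did not pass the test (limma adjusted p = 0.0516). It passed with 1 in place of 10 added to the signal, at 1.08 (adjusted p = 0.0444 in limma), and without the intensity trend in the moderation (0.0311). Stag3 differed by 0.35 (95% interval -0.11 to 0.81, limma adjusted p = 0.402), nearly all of it on day 6, at 74 in the lincRNA-p21 arm and 36 in the Hnrnpk arm, and the difference was 0.086 without that Hnrnpk library. Sycp1 differed by -0.08 (95% interval -0.40 to 0.23, limma adjusted p = 0.814), and its sign turned without day 6. Of all tested genes 3.26% were called in this comparison and 1.7% were called higher under the lincRNA-p21 hairpin. Calls made under the Hnrnpk hairpin and not under the lincRNA-p21 hairpin were thus not shown to differ between them.

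**Figure D3:**
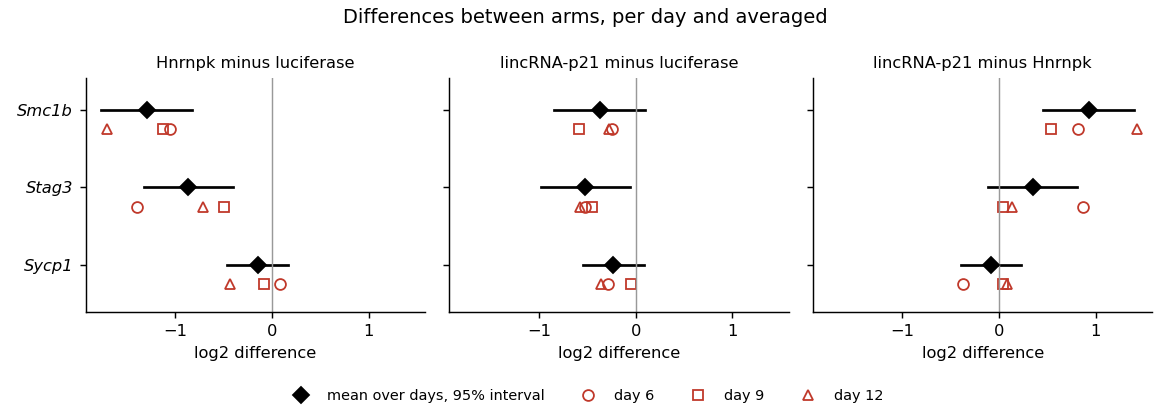
Log2 differences of Smc1b, Stag3 and Sycp1 between arms, with 10 added to the signal, in 1 panel for each pair of arms. Diamonds with bars are the mean over days with its 95% interval from limma, and open symbols are the differences on days 6, 9 and 12. For Hnrnpk minus luciferase the bar of Smc1b spans -1.77 to -0.83 and that of Sycp1 crosses 0.

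Smc1b and Stag3 were called higher on day 12 than on day 6, and Sycp1 was called higher on day 9 than on day 6. From day 6 to day 9 Smc1b and Stag3 rose about as much as Sycp1, without a call. Their log2 differences on that step were 0.51 in Smc1b (limma adjusted p = 0.0775) and 0.56 in Stag3 (limma adjusted p = 0.0553). In both knockdown arms Sycp1 was highest on day 9, and in the luciferase arm its values of days 9 and 12 were nearly equal. Over the 3 arms Smc1b averaged 48.2 ± 20.04, 73.5 ± 32.3 and 108 ± 59.8 on days 6, 9 and 12 (SD, n = 3 arms). Stag3 averaged 73.7 ± 37.5, 106 ± 23.1 and 132 ± 39.1, and Sycp1 averaged 195 ± 26.7, 278 ± 8.54 and 243 ± 42.1. The wide SDs of Smc1b and Stag3 come with the arm differences above, and the Sycp1 values of the 3 arms were tightest on day 9. From day 6 to day 12 Smc1b rose by 0.92 on the log2 scale (SE 0.21, limma adjusted p = 0.00634). Stag3 rose by 0.84 over the same span (SE 0.20, limma adjusted p = 0.00897). Both were called in all 9 fits with 1 library left out and neither was called without the whole lincRNA-p21 arm (adjusted p = 0.0851 for Smc1b and 0.0514 for Stag3 in limma).

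Sycp1 rose by 0.50 between days 6 and 9 (SE 0.14, limma adjusted p = 0.0209), and was higher on day 9 in all 3 arms, as were 31.3% of tested genes. That call ended without the luciferase library of day 9 (limma adjusted p = 0.0541), the Hnrnpk library of day 9 (0.0725), or the lincRNA-p21 library of day 6 (0.0914) or day 9 (0.120). Between days 6 and 12 its difference was 0.30 (limma adjusted p = 0.103), made of -0.02 under the Hnrnpk hairpin, 0.43 under the lincRNA-p21 hairpin and 0.49 under the luciferase hairpin. Calls of a rise were common in these comparisons. They took in 2 of the 3 genes and 22.3% of all tested genes between days 6 and 12 (another 27% fell), and 1 of the 3 and 18.9% of tested genes between days 6 and 9. Between days 9 and 12 the log2 differences were 0.40 in Smc1b, 0.28 in Stag3 and -0.20 in Sycp1, none of them called, with 0.654% of tested genes called in either direction.

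Within arms, the log2 difference of Smc1b between days 12 and 6 was 0.50 under the Hnrnpk hairpin, 1.11 under the lincRNA-p21 hairpin and 1.15 under the luciferase hairpin. That of Stag3 was 1.31 under the Hnrnpk hairpin, 0.57 under the lincRNA-p21 hairpin and 0.62 under the luciferase hairpin. A slope of the Hnrnpk difference per 3 days was fitted to ask whether it moved over time. It was -0.32 in Smc1b (limma adjusted p = 0.350), 0.34 in Stag3 (limma adjusted p = 0.284) and -0.26 in Sycp1 (limma adjusted p = 0.228). No change of the Hnrnpk difference over days was thus called in the 3 genes, where 9.35% of tested genes had one. The slopes of the lincRNA-p21 difference were between -0.03 and -0.02 in the 3 genes, with 0 genes called in the table and 2107 at an unadjusted p under 0.05 in limma.

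The other meiotic genes of the table were read from lists of cohesin, synapsis and recombination genes. Rec8 encodes the meiotic kleisin, the subunit that closes the cohesin ring. Its signal was 133, 120 and 133.5 in the Hnrnpk libraries of days 6, 9 and 12, against 120.5, 176.5 and 271.5 in the luciferase libraries. Rec8 climbed in the luciferase arm and stayed level in the Hnrnpk arm, so that the arms were alike on day 6 and apart on day 12. The mean log2 difference was -0.45 (SE 0.20, limma adjusted p = 0.166). The slope of that difference was called, at -0.55 per 3 days (SE 0.14, limma adjusted p = 0.0481), and the call held in the fits without the luciferase or the Hnrnpk library of day 9 and ended without any of the other 7 libraries.

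Prdm9 encodes the histone methyltransferase that marks sites of meiotic recombination. Its signal was 53, 94.5 and 70.5 in the Hnrnpk libraries of days 6, 9 and 12, against 160.5, 161 and 204 in the luciferase libraries. No Hnrnpk library reached the lowest luciferase library. Prdm9 fell by 1.19 on the log2 scale (SE 0.18, limma adjusted p = 0.00723), a call kept in all 9 fits with 1 library left out and lost, as in Smc1b, without day 9 (limma adjusted p = 0.0733), without day 12 (0.0646) or without the day term (0.155). In the lincRNA-p21 arm Prdm9 was at 88.5, 134 and 156, a log2 difference of -0.47 from the luciferase arm (limma adjusted p = 0.318).

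Of 44 listed meiotic genes other than the 3 described first, 9 were tested, and the others were not found in the table. Prdm9 was the 1 that fell under the Hnrnpk hairpin, a share near the 6.94% of all tested genes, none rose, and the median log2 difference of the 9 was -0.21, against 0.00 over all tested genes. The slope of the Hnrnpk difference was called upward in 4 of the 9 and downward in Rec8, where 5.06% of tested genes were called upward and 4.3% downward. Their median slope was 0.45, against -0.01 over all tested genes.

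Syce2, which encodes a central element protein of the synaptonemal complex, was at 73, 232 and 423 in the Hnrnpk libraries of days 6, 9 and 12, against 142.5, 184.5 and 152 in the luciferase libraries. It was below its control on day 6 and above it on days 9 and 12. Its slope was 1.15 per 3 days (SE 0.13, limma adjusted p = 0.0167). Mnd1, a partner of the strand exchange recombinases, was at 163, 325 and 418 in the Hnrnpk libraries, against 165, 192.5 and 162 in the luciferase libraries. It started level with its control and parted from it by day 9. Its slope was 0.67 (SE 0.12, limma adjusted p = 0.0248). Psmc3ip, whose product pairs with that of Mnd1, had a slope of 0.71 (SE 0.12, limma adjusted p = 0.0222), and was at 212, 358 and 372 in the Hnrnpk libraries, against 262, 269 and 166 in the luciferase libraries. Trip13, named after its values were seen, was the fourth, with a slope of 0.70 that ranged from 0.19 (without the Hnrnpk library of day 6) to 1.21 (without that of day 12), and it also acts in dividing somatic cells, in the mitotic checkpoint.

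The calls of these 4 slopes did not hold in every fit with 1 library left out. Each ended without the luciferase library of day 6, without the Hnrnpk library of day 6 and without any 1 of the lincRNA-p21 libraries, fits that leave 1 residual degree of freedom. Mnd1 and Psmc3ip also lost the call without the luciferase or the Hnrnpk library of day 12. Slopes of the Hnrnpk difference were also called among genes of mitotic chromosome structure. They were upward in 3 of 14 condensin and SMC5/6 genes and in 3 of 17 genes of cohesin loading, release and separation. Among 5 mitotic cohesin subunits 1 was called upward, and none of these lists had a downward call. Of all tested genes 5.06% were called upward and 4.3% downward, so lists this short without a downward call stand near the background. Apart from Smc1a, given below, these calls were not followed in fits with 1 library left out. The part of cell division in the slopes of the meiotic genes was not tested.

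**Figure D4:**
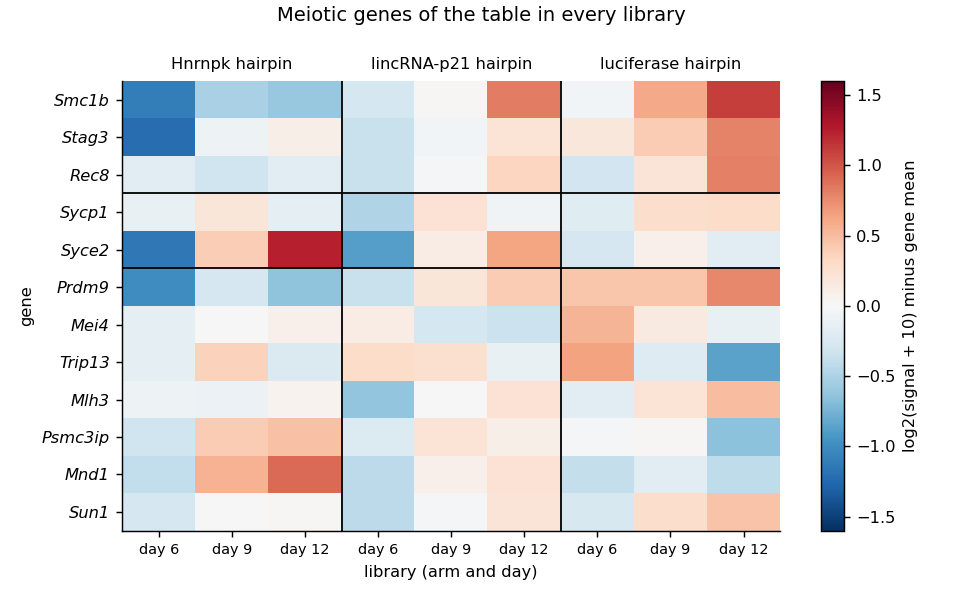
Log2(signal + 10) minus the gene's mean over the 9 libraries (colour scale) for 12 meiotic genes of the table, in rows, with libraries in columns by arm and day. Lines separate cohesin subunits, synaptonemal complex genes and recombination genes. Smc1b, Stag3 and Prdm9 are lowest in the Hnrnpk library of day 6, Rec8 is highest in the luciferase library of day 12, and Syce2 and Mnd1 are highest in the Hnrnpk library of day 12.

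The somatic counterparts of the meiotic cohesin subunits were not called under the Hnrnpk hairpin. Smc1a was at 4617, 5746 and 5803.5 in the Hnrnpk libraries of days 6, 9 and 12, against 6465.5, 5549.5 and 4274.5 in the luciferase libraries. The arms crossed at day 9, and the mean log2 difference was 0.00 (limma adjusted p = 0.996). Its slope was called, at 0.46 per 3 days (SE 0.11, limma adjusted p = 0.0450), in the full fit and in those without the luciferase or the Hnrnpk library of day 9, but in none without another library. Stag1 was at 1933, 2085 and 1640 in the Hnrnpk libraries, against 2231, 1764 and 1520 in the luciferase libraries, a log2 difference of 0.05 (limma adjusted p = 0.810). Stag2 was at 4451, 5392 and 4913 in the Hnrnpk libraries, against 4637.5, 6741.5 and 7370.5 in the luciferase libraries, a log2 difference of -0.32 (limma adjusted p = 0.197). Signal is not compared between genes here, since the sources do not say whether it is per length.

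As lists under the Hnrnpk hairpin, 2 of the 3 meiotic cohesin subunits tested fell (median -0.87), and 0 of 5 mitotic subunits were called (median -0.12), where 6.94% of all tested genes fell and 5.58% rose. At such shares a short list with no call stands near the background. None of 17 genes of cohesin loading, release and separation was called (median 0.12), and none of 14 condensin and SMC5/6 genes (median -0.05). In the list of cohesin loading and release the widest difference was in Hdac8, the deacetylase that recycles SMC3, at -0.54 (limma adjusted p = 0.0661). Between days 6 and 12 all 3 meiotic cohesin subunits rose, where 22.3% of all tested genes did, Rec8 by 0.60 (limma adjusted p = 0.0325). The rise was not particular to cohesin. Of the 9 meiotic genes tested besides Smc1b, Stag3 and Sycp1, with Rec8 among them, 5 were called higher and 0 lower. Stag2 rose over the same days by 0.60 (limma adjusted p = 0.0113) and Stag1 fell by 0.36 (limma adjusted p = 0.0238). The Rec8 call ended without any 1 library except those of the Hnrnpk arm on day 6 or 12. The Stag1 call ended without the luciferase library of day 6 or 12, the Hnrnpk library of day 12 or the lincRNA-p21 library of day 12, and that of Stag2 without the lincRNA-p21 library of day 6 or 12.

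**Figure D5:**
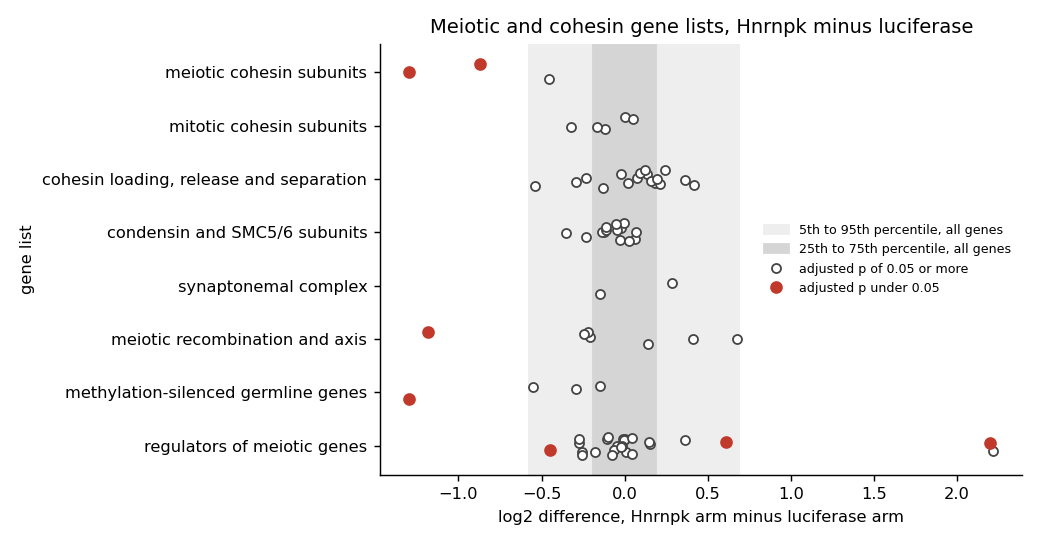
Log2 differences of the Hnrnpk arm minus the luciferase arm (horizontal axis) for the genes of 8 lists, 1 point per gene, filled where the limma adjusted p is under 0.05. Grey bands give the spread of all 12541 tested genes, the interquartile range from -0.19 to 0.19 (darker) and the range without the outer tails from -0.58 to 0.69 (lighter), and Smc1b and Sycp1 stand in the methylation-silenced list as well. Filled points left of the bands are Smc1b at -1.30, Stag3 at -0.87 and Prdm9 at -1.19, and Dnmt3l is filled at the right, at 2.20.

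Smc1b and Sycp1 also belong to a list of germline genes that promoter methylation keeps off in somatic cells, of which 4 of 30 were tested. The others were Tdrkh and Tex15, which act in the piRNA pathway of the germline. Smc1b was the 1 of the 4 that fell under the Hnrnpk hairpin, where 6.94% of all tested genes fell, and the median difference was -0.42. Tdrkh was at 39.5, 70.5 and 151 in the Hnrnpk libraries of days 6, 9 and 12, against 77, 117 and 172.5 in the luciferase libraries. It was lower on each day and climbed steeply in both arms. Its log2 difference was -0.55 (SE 0.18, limma adjusted p = 0.0753), and it rose by 1.42 between days 6 and 12 over all arms (SE 0.18, limma adjusted p = 0.000337).

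Among 25 tested regulators of meiotic genes, 2 rose and 1 fell under the Hnrnpk hairpin, where 5.58% of all tested genes rose and 6.94% fell, so both counts stand near the background. Rybp, a subunit of Polycomb PRC1 complexes that include PRC1.6, was at 1748, 1679 and 1614.5 in the Hnrnpk libraries of days 6, 9 and 12, against 1212, 1020.5 and 1074 in the luciferase libraries. Rybp rose by 0.61 (SE 0.09, limma adjusted p = 0.00630), a call kept with any 1 library left out. The call was lost without day 9 (limma adjusted p = 0.156), without day 12 (0.0633), without the day term (0.0979) or with only the 2 arms in the fit (0.0569). Dnmt3l, the cofactor of de novo DNA methylation in germ cells, was at 1, 65.5 and 282 in the Hnrnpk libraries, against 0, 2.5 and 10 in the luciferase libraries. It was near nothing in both arms on day 6 and apart afterwards. It rose by 2.20 (SE 0.61, limma adjusted p = 0.0490), a call that held without the luciferase or the Hnrnpk library of day 6 and in no other such fit. The size in Dnmt3l depends on what is added to its signal, with 3.31 for 1 and 1.52 for 30, the second without a call (limma adjusted p = 0.0613). Its partner Dnmt3b differed by 2.22 without passing the test (SE 0.64, limma adjusted p = 0.0551).

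Dnmt3a, a de novo DNA methyltransferase, was at 1865, 2899 and 2651 in the Hnrnpk libraries of days 6, 9 and 12, against 2460, 3697 and 4044 in the luciferase libraries. It fell by 0.45 (SE 0.11, limma adjusted p = 0.0332), a call that held without the Hnrnpk or the lincRNA-p21 library of day 6 and in no other such fit. E2f6, named after its values were seen as the repressor described at the outset, differed by -0.18 (limma adjusted p = 0.241).

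Markers of the cell states present moved with the arms and days as well. In the Hnrnpk arm 7 of 15 pluripotent cell markers were called higher and 1 lower than in the luciferase arm, with a median of 1.28, where 5.58% of all tested genes were called higher and 6.94% lower. Their summed signal spanned 31487.5 to 67252.5 in the Hnrnpk arm and 47907.5 to 109779 in the luciferase arm, a sum that takes in Pou5f1 and Sox2, which were also supplied on plasmids. Of 17 fibroblast markers 1 was called higher and 1 lower, with sums of 249614 to 423451 in the Hnrnpk arm and 321026 to 377902.5 in the luciferase arm. Col1a2 and Vim, large parts of those sums, were at the table's shared highest value of 118715 in several libraries, so the fibroblast sums have a ceiling. Pou5f1, a large part of the pluripotent sums, was at the same value of 44876 in every arm on day 9. Between days 6 and 12, the span in which Smc1b and Stag3 rose, 12 of 15 pluripotent cell markers rose and 8 of 17 fibroblast markers fell, against 22.3% and 27% of all tested genes. All 3 germ cell markers measured rose over those days, and 0 of 3 were called under the Hnrnpk hairpin. The part of these markers in the differences of Smc1b, Stag3 and Sycp1 was not tested.

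The 3 genes were last compared by profile, as the root-mean-square distance between their centred log2 values over the 9 libraries. Smc1b and Stag3 were 0.37 apart, with a correlation of 0.84 over the 9 libraries, and 94 of the 12541 tested genes lay closer to Smc1b than Stag3 did. Smc1b and Sycp1 were 0.61 apart (correlation 0.46), and Stag3 and Sycp1 0.46 apart (correlation 0.49). The points of these correlations share libraries, arms and days. Nearest to Smc1b were Bbs12 at 0.166, Gpr27 at 0.195 and Macrod1 at 0.196, with correlations of 0.96 to 0.97. Bbs12, a chaperonin-like Bardet-Biedl syndrome gene, had signal of 70, 125.5 and 123 in the Hnrnpk libraries of days 6, 9 and 12, against 133.5, 249.5 and 318.5 in the luciferase libraries.

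Nearest to Stag3 were Apln, which encodes the peptide ligand apelin, at 0.134, Ggnbp1 at 0.164 and Hpse, which encodes heparanase, at 0.171. Apln had signal of 32, 56 and 76 in the Hnrnpk libraries of days 6, 9 and 12, against 76, 90.5 and 127 in the luciferase libraries. Nearest to Sycp1 were Fan1, a nuclease of DNA crosslink repair, at 0.0569, Syne3 at 0.0883 and Aggf1 at 0.0899. Fan1 had signal of 184.5, 227 and 167 in the Hnrnpk libraries, against 170.5, 243 and 238.5 in the luciferase libraries. Distances are smaller for a flatter profile, and Sycp1 itself lay 0.25 from its own mean, against 0.68 for Smc1b and 0.53 for Stag3.

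By GENCODE M21 on GRCm38, Smc1b (ENSMUSG00000022432) spans chr15:85064689-85131964 on the minus strand, Stag3 (ENSMUSG00000036928) chr5:138280240-138312393 on the plus strand and Sycp1 (ENSMUSG00000027855) chr3:102818499-102936100 on the minus strand. Stag3 overlaps no other annotated gene, and its start by GENCODE lies before the whole promoter window printed above. Smc1b overlaps 1 pseudogene and Sycp1 overlaps 3, all on the opposite strand and without a row in the table, and the sources used here do not say whether counting used strand.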

How the data were processed

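RNA-seq libraries, 1 for each of 3 hairpin arms on days 6, 9 and 12, were read from 1 deposited table of normalized signal. The submitters' processing notes name RSEM 1.2.12, Bowtie 1.0.1 and mm10 without their roles, and the labels call each library merged replicates. In the deposited signal the column totals differ by 0.0252%, every column has the same highest value of 118715, and values move in steps of 0.5. No gene has a highest value under 32.5, and depth is unknown. From the values, log2(signal + 10) was fitted in R 4.3.3 with limma 3.58.1 for 12541 genes with a mean of at least 20 (9 were below), with terms for arm and day (4 residual degrees of freedom), moderation with an intensity trend and Benjamini-Hochberg adjustment at 0.05 over all tested genes. Slopes of arm differences per 3 days came from a further fit, which leaves 2 residual degrees of freedom. Scripts were tested on simulated data. The 3 genes and all lists were chosen with earlier results of these data known. Outside the 3 genes and the hairpin targets, values were given for the somatic counterparts of the cohesin subunits, for up to 4 genes per list with the widest Hnrnpk difference and for the nearest profiles. Where a called gene or slope of a list went beyond this rule, the text says so. Promoter sequences were taken from RefSeq (GRCm38.p6), which held all 3 genes. Protein sequences were not used here. The result of 1 listed gene is left out of the counts and not reported.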

Additional observations from a re-analysis of the deposited data

How the results depend on the processing

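The table is given in a scale whose making is unknown, each group is 1 library, and the spread that the tests use is that across days or arms. Other pseudocounts (1 and 30), filters, moderation and rescaling by median ratios (factors 0.974 to 1.03) kept the direction of every difference of Smc1b, Stag3 and Sycp1 in all comparisons. The column totals were nearly equal and the factors near 1, so the rescaling could move little and is a weak check. Smc1b has no value with a mean of at least 100, which removes it.

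For the Hnrnpk arm against the luciferase arm, Smc1b was not called without the day term (-1.30, adjusted p = 0.252), without day 9 (-1.38, 0.0942) or without day 12 (-1.09, 0.0691). Stag3 was not called without the day term (-0.87, 0.427), with only the 2 arms in the fit (-0.87, 0.102), without day 9 (-1.05, 0.137) or without day 12 (-0.95, 0.122). With 1 library left out, Stag3 lay between -1.04 and -0.61. Smc1b between the lincRNA-p21 and Hnrnpk arms was called with a pseudocount of 1 (1.08), without the intensity trend (0.93) and with robust moderation (0.93, 0.0495), and lay between 0.70 and 1.08 with 1 library left out, called without the luciferase library of day 6 (0.0309). Sycp1 between those arms turned to 0.059 without day 6 and ranged from -0.20 to 0.044 with 1 library left out. Uncalled differences that moved widely were those of Stag3 between the knockdown arms (0.086 without the Hnrnpk library of day 6 to 0.52 without that of day 9), Sycp1 in the Hnrnpk arm (-0.28 without its library of day 6 to -0.034 without that of day 12) and, under the lincRNA-p21 hairpin, Smc1b (-0.52 to -0.22) and Sycp1 (-0.31 to -0.13).

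Between days 9 and 6, Smc1b (0.51, 0.0466) and Stag3 (0.56, 0.0427) were called without the intensity trend, and ranged from 0.38 to 0.67 and from 0.30 to 0.69 with 1 library left out, called in Smc1b without the Hnrnpk library of day 12 (0.0438) and in Stag3 without the luciferase library of day 6 (0.0335). Sycp1 was 0.39 (0.227) without the lincRNA-p21 arm and between 0.41 and 0.63 with 1 library left out. Between days 12 and 6, Sycp1 was called without the Hnrnpk arm (0.46, 0.0440) and lay between 0.20 and 0.43 with 1 library left out, called without the Hnrnpk library of day 6 (0.0342). Without the lincRNA-p21 arm, Smc1b (0.82, 0.0851) and Stag3 (0.97, 0.0514) were not called.

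Leaving out 1 library was added for the slopes after seeing the data. The Hnrnpk slopes ranged from -0.74 to 0.10 in Smc1b, from -0.16 to 0.85 in Stag3 and from -0.44 to -0.074 in Sycp1, and the lincRNA-p21 slopes from -0.47 to 0.44 in Smc1b, from -0.35 to 0.30 in Stag3 and from -0.26 to 0.19 in Sycp1. None was called. Of the called slopes, that of Rec8 was lost with a mean of at least 100 (adjusted p = 0.0506) and that of Smc1a without the intensity trend (0.0708), as was that of Trip13.

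The number of genes called moved most. For the Hnrnpk arm against the luciferase arm it was 1570, against 1 without the day term, 330 with 2 arms, and 3001, 25 and 367 without day 6, 9 or 12. For the lincRNA-p21 arm against the luciferase arm it was 1, against 13 without the intensity trend, 175 without day 6 and 0 with a pseudocount of 30, without the day term, with 2 arms or without day 9 or 12. Between the knockdown arms it was 409, against 1 without the day term, 646 with 2 arms, 649 without day 6 and 0 without day 9 or 12. Between days 12 and 9 it was 82, against 50 with a pseudocount of 1 and 11, 0 and 2 without the Hnrnpk, lincRNA-p21 or luciferase arm. Without the lincRNA-p21 arm it was 1778 (not 5008) between days 9 and 6 and 3073 (not 6181) between days 12 and 6. The Hnrnpk slope gave 596 genes without the intensity trend, against 1173. With 1 library left out the counts ranged from 559 to 2045 (Hnrnpk against luciferase), 0 to 92 (lincRNA-p21 against luciferase), 4 to 959 (between knockdown arms), 3062 to 5605 (days 9 and 6), 1 to 421 (days 12 and 9), 0 to 2789 (Hnrnpk slope) and 0 to 730 (lincRNA-p21 slope). The cause of these moves was not tested, beyond the smaller number of libraries in fits that leave some out. Arms were matched by day through the day term, which the fits named as without it leave out, and the labels give no replicate number to pair by.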
